A study of Mus musculus with 227 samples.

Results

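Mitoxantrone·HCl, hydroxyurea and mebendazole are 3 drugs known for stopping cell division, each by another route, and each was tested on 1 culture of mouse cerebral cortex. They were picked by their labelled agent, and make up 3 of the 218 drug libraries of a screen that also holds 9 vehicle libraries. The cultures were dissociated from the cortex of embryos of an FVB/N and C3B6F1 cross, grown in Neurobasal medium with B27, and kept for 21 days in vitro. Mitoxantrone·HCl, hydroxyurea, mebendazole or vehicle (0.2% DMSO) was then applied for 8 hours, and mRNA libraries were sequenced. Each drug has 1 library and the vehicle has 9. The doses are not given in the sources used here, so the drugs are set side by side and differences between them are not differences at matched doses.

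Mitoxantrone intercalates into DNA and traps topoisomerase II on it, which leaves double-strand breaks. Hydroxyurea inhibits ribonucleotide reductase, the enzyme that makes the deoxynucleotides needed for replication. Mebendazole, used against worms, binds β-tubulin and blocks microtubule assembly. Damaged or stalled DNA activates the p53 transcription factor, whose targets include cell cycle inhibitors, death genes and repair enzymes. Genes of mitosis are expressed mainly in G2 and M phase, and many carry a promoter element called CHR, at which the DREAM and B-MYB complexes act. The abundance of tubulin mRNA is also set by the pool of unassembled tubulin, through recognition of the first residues of nascent α- and β-tubulin. Neurons do not divide, so in such cultures cycling cells are glia and precursors.

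The cultures showed the markers of cortical cells. Summed over 8 neuron markers the level was 5290 CPM (counts-per-million, TMM-scaled) with mitoxantrone, 4630 CPM with hydroxyurea, 5370 CPM with mebendazole and 4470 to 6220 CPM in the vehicles. Over 7 astrocyte markers the sums were 5070, 7370 and 5660 CPM in the same drug order, against 5640 to 7330 CPM in the vehicles. Microglia markers summed to at most 13.2 CPM and endothelial markers to at most 5.72 CPM in these 12 libraries. The libraries held 35.74 M counts for mitoxantrone, 33.57 M counts for hydroxyurea, 30.84 M counts for mebendazole and 31.4 to 43.77 M counts for the vehicles. Each library name carries a number called run code here, and the labels do not say what it stands for. Mitoxantrone and mebendazole share one run code with 6 other drugs and no vehicle, while hydroxyurea shares another with 31 libraries, of which 2 are vehicles. Each drug was therefore also compared with the other libraries of its run code, which for mitoxantrone and mebendazole are all drug-treated. A drug group of 1 library has no spread of its own, so every test assumes that it varies like the libraries it is set against.

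The promoters shown first hold the motifs that the results for mitoxantrone and hydroxyurea refer to. Cenpf (a kinetochore protein; chr1:189688037-189688336, minus strand) and Aspm (a spindle pole protein; chr1:139454523-139454822, plus strand) were lower with both drugs, and capitals mark the CHR letters. Coordinates are GRCm38.p6 and the windows run from 250 bases before to 50 after the RefSeq gene start.
Cenpf: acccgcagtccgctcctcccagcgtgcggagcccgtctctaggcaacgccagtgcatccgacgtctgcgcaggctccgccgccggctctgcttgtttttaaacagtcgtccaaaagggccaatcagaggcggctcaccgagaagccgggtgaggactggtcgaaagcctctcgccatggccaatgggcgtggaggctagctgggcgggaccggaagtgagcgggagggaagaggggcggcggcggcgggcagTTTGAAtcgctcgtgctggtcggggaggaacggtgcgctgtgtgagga
Aspm: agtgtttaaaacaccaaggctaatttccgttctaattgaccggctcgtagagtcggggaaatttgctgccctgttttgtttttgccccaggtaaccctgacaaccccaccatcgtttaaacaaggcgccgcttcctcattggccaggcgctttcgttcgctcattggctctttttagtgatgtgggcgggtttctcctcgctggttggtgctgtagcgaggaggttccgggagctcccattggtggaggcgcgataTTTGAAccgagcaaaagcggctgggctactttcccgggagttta

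Cdkn1a (the cell cycle inhibitor p21; chr17:29090729-29091028, plus strand), Ccng1 (cyclin G1; chr11:40755237-40755536, minus strand) and Gtse1 (a G2 and S phase protein that binds p53; chr15:85859696-85859995, plus strand) were high with mitoxantrone, and capitals mark a p53 element. They are printed because they hold the element. Against vehicle Gtse1 passed, while Cdkn1a and Ccng1 did not.
Cdkn1a: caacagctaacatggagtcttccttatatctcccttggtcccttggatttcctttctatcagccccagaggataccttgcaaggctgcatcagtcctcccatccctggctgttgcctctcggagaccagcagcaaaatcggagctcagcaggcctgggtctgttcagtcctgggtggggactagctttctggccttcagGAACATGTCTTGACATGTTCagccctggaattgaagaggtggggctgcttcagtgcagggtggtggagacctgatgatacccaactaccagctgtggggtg
Ccng1: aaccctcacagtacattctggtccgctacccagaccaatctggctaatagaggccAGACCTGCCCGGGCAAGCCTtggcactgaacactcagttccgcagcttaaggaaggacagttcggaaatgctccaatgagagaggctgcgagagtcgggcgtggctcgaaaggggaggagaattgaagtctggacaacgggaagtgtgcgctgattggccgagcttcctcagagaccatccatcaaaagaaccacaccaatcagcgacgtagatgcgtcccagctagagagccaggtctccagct
Gtse1: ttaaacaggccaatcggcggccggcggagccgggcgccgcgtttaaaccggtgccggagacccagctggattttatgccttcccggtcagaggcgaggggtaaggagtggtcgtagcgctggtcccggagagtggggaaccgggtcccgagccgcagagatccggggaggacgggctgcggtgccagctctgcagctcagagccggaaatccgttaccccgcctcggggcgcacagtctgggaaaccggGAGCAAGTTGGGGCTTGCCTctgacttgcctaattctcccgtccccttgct

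Mitoxantrone raised p53 target genes and lowered genes of mitosis. In edgeR's quasi-likelihood test against the 9 vehicles, 62 of 15423 genes passed a Benjamini-Hochberg adjusted p of 0.05, or 0.402%, with 26 higher (0.169%) and 36 lower (0.233%). Against the 7 other libraries of its run code, 113 of 15210 genes passed (0.743%), 36 higher (0.237%) and 77 lower (0.506%). The count against vehicle was 32 without vehicle 4, 30 without vehicle 5, 40 without vehicle 6, 39 without vehicle 7 and 33 without vehicle 9. Within the run code it was 53 without Loratadine, 62 without Mebendazole, 54 without Metoprolol Tartrate and 68 without Tamsulosin·HCl.

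Of 40 p53 targets, all were tested and 8 rose with mitoxantrone against vehicle (Pmaip1, Polk, Pidd1, Psrc1, Aen, Btg2, Mdm2 and Ercc5), beside 0.169% of all genes. None fell, 37 had a positive log2 fold change, and the median was 0.62, against -0.01 over all genes. In 29 of the 40 the mitoxantrone level was above all 9 vehicles, which held for 15.7% of all genes tested. Within the run code 11 rose, Btg2 no longer passed, and Apaf1, Ccng1, Phlda3 and Tnfrsf10b did; the median was 0.65, against -0.01 over all genes, and 30 lay above all 7 other libraries (17% of all genes did). In 14 of the 40 the mitoxantrone library was the highest of the screen, a position that was not counted over all genes.

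Among the death genes, Pmaip1 (Noxa, a BH3-only protein) stood at 28.7 CPM with mitoxantrone, against 6.84, 8.91 and 10.5 CPM (lowest, median and highest) in the vehicles. That is a log2 fold change of 1.71 ± 0.17 (SE; edgeR adjusted p = 0.0036), with the drug library far above every vehicle. Pidd1 (the p53-induced death domain protein) was at 9.22 CPM with mitoxantrone and at 2.8, 3.5 and 4.4 CPM in the vehicles (log2 fold change 1.37 ± 0.22, edgeR adjusted p = 0.030). It did not pass without vehicle 4, 5, 7 or 9 (highest edgeR adjusted p 0.079), but within the run code its edgeR adjusted p was 0.0030. Aen, a p53-induced nuclease, reached 77.9 CPM with mitoxantrone, against 31.6, 33.4 and 41.5 CPM in the vehicles (log2 fold change 1.137 ± 0.14, edgeR adjusted p = 0.0089). Bax (the pore-forming BCL2 relative), at 45.4 CPM with mitoxantrone and 33.0, 39.4 and 45.3 CPM in the vehicles, did not pass (edgeR adjusted p = 0.61).

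Among the cell cycle and feedback genes, Cdkn1a was at 284.9 CPM with mitoxantrone and at 48.2, 80.5 and 134 CPM in the vehicles. The drug library lay above every vehicle and was the highest of the screen, but the vehicles themselves ranged widely and the gene did not pass (log2 fold change 1.74 ± 0.35, edgeR adjusted p = 0.080). It did pass with DESeq2 (adjusted p = 0.0050) and with limma and run code in the model (adjusted p = 0.044). Ccng1, at 419.8 CPM with mitoxantrone and 156, 183 and 272 CPM in the vehicles, did not pass edgeR's test (adjusted p = 0.17), passed with DESeq2 (adjusted p = 0.041) and limma (adjusted p = 0.0092), and rose within the run code (log2 fold change 0.96 ± 0.16, edgeR adjusted p = 0.033). That call was lost without Losartan Potassium, Mebendazole or Metoprolol Tartrate (highest edgeR adjusted p 0.075). Btg2 (an antiproliferative factor) rose to 55.4 CPM with mitoxantrone, against 27.6, 29.0 and 33.6 CPM in the vehicles (log2 fold change 0.91 ± 0.10, edgeR adjusted p = 0.0065). It did not pass with limma and run code in the model. With mebendazole, of the same run code, Btg2 was at 44.6 CPM, also above every vehicle. Mdm2 (the ubiquitin ligase that degrades p53) was at 64.9 CPM with mitoxantrone and at 39.4, 42.9 and 47.7 CPM in the vehicles (log2 fold change 0.59 ± 0.09, edgeR adjusted p = 0.023). It passed in all of the leave-one-out fits but those without vehicle 5, 7 or 9 (highest edgeR adjusted p 0.065). Trp53 mRNA itself was within the vehicle range, at 29.1 CPM with mitoxantrone and 22.6, 26.2 and 32.2 CPM in the vehicles.

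The repair and damage tolerance targets were divided. Polk (the translesion polymerase κ) had the lowest adjusted p of the list, at 28.2 CPM with mitoxantrone and 9.35, 10.3 and 12.4 CPM in the vehicles (log2 fold change 1.43 ± 0.11, edgeR adjusted p = 0.0013). Ercc5 (the XPG nuclease of excision repair) was at 41.5 CPM with mitoxantrone, against 28.9, 29.6 and 31.2 CPM in the vehicles (log2 fold change 0.50 ± 0.07, edgeR adjusted p = 0.014). Xpc and Ddb2, which recognise damage in the same pathway, had log2 fold changes of -0.01 and -0.13 and did not pass. Sesn1 was the member with the most negative log2 fold change (-0.44 ± 0.27, edgeR adjusted p = 0.54), at 48.4 CPM with mitoxantrone and 49.3 to 83.9 CPM in the vehicles. Of 35 further genes of damage signalling and repair none passed, and the median was -0.09.

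Genes outside the p53 list were also among the largest rises. Gtse1 rose to 13.5 CPM with mitoxantrone, against 4.1, 4.7 and 5.5 CPM in the vehicles (log2 fold change 1.55 ± 0.14, edgeR adjusted p = 0.0030). Sdc1 (syndecan-1) was at 12.6 CPM with mitoxantrone and at 3.7, 4.5 and 5.0 CPM in the vehicles (log2 fold change 1.54 ± 0.15, edgeR adjusted p = 0.0036). Tap1 (a peptide transporter of antigen presentation), Slc19a2 (a thiamine transporter), Ddias (a damage-induced apoptosis suppressor) and Msh6 (mismatch repair) rose by 1.138, 1.06, 1.31 and 0.76 on the log2 scale, with edgeR adjusted p of 0.0047, 0.0047, 0.013 and 0.015. Each lay above all 9 vehicles and passed in all 9 fits that left out a vehicle. Cxcl1, a chemokine, had the largest log2 fold change among the genes that passed (2.999 ± 0.47, edgeR adjusted p = 0.024), at 2.85 CPM with mitoxantrone and 0.14, 0.39 and 0.69 CPM in the vehicles. It did not pass without vehicle 4, 5, 6, 7 or 9 (highest edgeR adjusted p 0.065). It was 1 of 17 tested NF-κB genes, the rest of which did not pass against vehicle. Within the run code the NF-κB inhibitor gene Nfkbia rose too (log2 fold change 0.72 ± 0.10, edgeR adjusted p = 0.018).

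**Figure D1:**
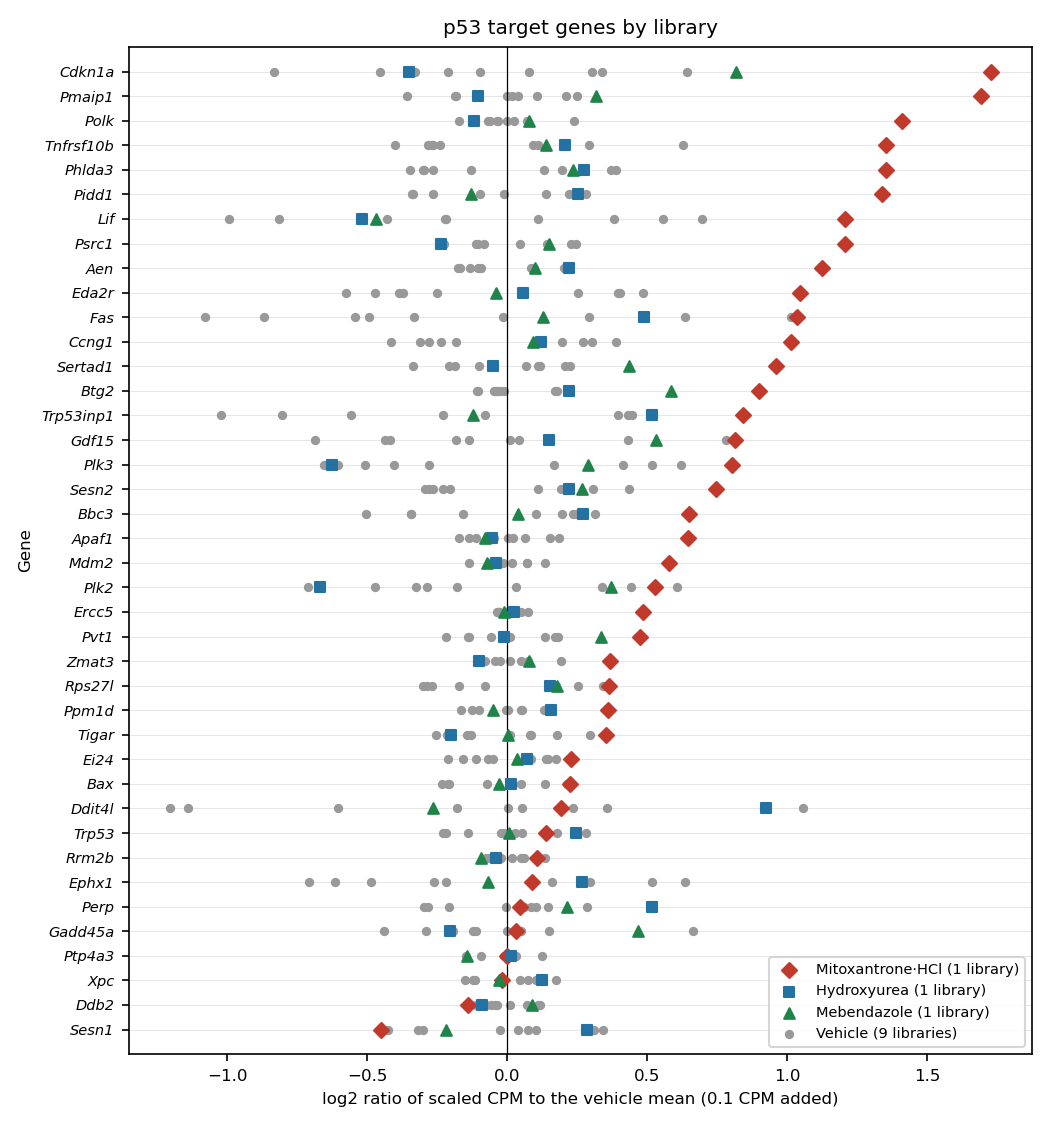
Each row is 1 of 40 p53 target genes, and the x axis is the log2 ratio of its CPM to the vehicle mean. Red diamonds (mitoxantrone) lie above all grey vehicle points for 29 genes, while hydroxyurea (blue) and mebendazole (green) lie mostly among the vehicles.

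With hydroxyurea the median log2 fold change of the 40 p53 targets was 0.05 and with mebendazole 0.08, and no member passed with either. The highest log2 fold change was that of Ddit4l with hydroxyurea (0.92) and of Cdkn1a with mebendazole (0.82). With hydroxyurea 3 members lay above all vehicles (13.4% of all genes did) and 3 above all other libraries of the run code (3.94%). With mebendazole the counts were 5 (7.02%) and 2 (6.27%), and the other libraries of its run code include mitoxantrone. Cdkn1a was at 67.4 CPM with hydroxyurea and at 151 CPM with mebendazole, and the mebendazole value lay above the vehicle maximum of 134 CPM. The other libraries of its run code held 81.4 to 284.9 CPM, and the highest of these is mitoxantrone. A score over the list, the mean of log2(CPM + 1) minus its vehicle mean over 39 expressed members, was 0.63 with mitoxantrone, 0.08 with hydroxyurea, 0.12 with mebendazole and -0.10 to 0.16 in the vehicles. Mitoxantrone had the highest score of the screen, followed by Nilotinib at 0.50.

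All 28 genes of mitosis were lower with mitoxantrone than in any vehicle, which held for 16.1% of all genes tested. Of the 28, 11 fell in the test, beside 0.233% of all genes, and the median log2 fold change was -1.20. Within the run code 20 fell, with a median of -1.10, and all 28 lay below the 7 other libraries (18.8% of all genes did). The mitoxantrone library was the lowest of the screen for 24 of the 28, and the share of all genes for which this held was not counted. In RNA from a mixed culture, fewer dividing cells and less RNA per dividing cell cannot be told apart.

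Casc5 (the kinetochore scaffold KNL1), which is not on the list, had the largest fall among the genes that passed, to 1.06 CPM with mitoxantrone, against 4.0, 5.41 and 6.05 CPM in the vehicles. The log2 fold change was -2.30 ± 0.25 (edgeR adjusted p = 0.0047). Kif20a (a kinesin of cytokinesis) was at 1.27 CPM with mitoxantrone and at 3.69, 5.86 and 6.64 CPM in the vehicles (log2 fold change -2.14 ± 0.31, edgeR adjusted p = 0.020). Mki67, the gene of the proliferation marker Ki-67, fell to 9.08 CPM with mitoxantrone, against 24.2, 32.5 and 38.0 CPM in the vehicles (log2 fold change -1.82 ± 0.24, edgeR adjusted p = 0.013). Ccna2 (cyclin A2) was at 4.45 CPM with mitoxantrone, against 11.3, 13.5 and 15.6 CPM in the vehicles (log2 fold change -1.59 ± 0.17, edgeR adjusted p = 0.0047). For each of these genes the drug library stood well below the lowest vehicle.

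Cenpf was at 4.53 CPM and Aspm at 3.33 CPM with mitoxantrone, against 10.4 to 17.8 CPM and 7.52 to 12.9 CPM in the vehicles. Their log2 fold changes were -1.79 ± 0.28 and -1.76 ± 0.27 (edgeR adjusted p = 0.024 for both), and neither passed without vehicle 4, 5 or 9 (highest edgeR adjusted p 0.055 and 0.056). Foxm1, the transcription factor of G2 and M genes, fell to 3.3 CPM with mitoxantrone, against 7.11, 8.73 and 9.32 CPM in the vehicles (log2 fold change -1.34 ± 0.18, edgeR adjusted p = 0.013). Top2a, the topoisomerase II isoform of dividing cells and a target of mitoxantrone, was at 13.0 CPM with mitoxantrone and at 27.7, 41.2 and 42.1 CPM in the vehicles (log2 fold change -1.55 ± 0.22, edgeR adjusted p = 0.015). Top2b, the isoform of neurons and other resting cells, was at 231 CPM with mitoxantrone and 244 to 276 CPM in the vehicles and did not pass (log2 fold change -0.18, edgeR adjusted p = 0.44). Top2a was the only one of 8 topoisomerase and repair enzyme genes to pass.

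Of 29 genes of S phase, 3 fell with mitoxantrone against vehicle (Cdc6, E2f8 and Mcm5), beside 0.233% of all genes, the median log2 fold change was -0.35, and within the run code none passed (median -0.32). Cdc6 (a replication licensing factor) was at 0.49 CPM with mitoxantrone and at 1.39, 1.6 and 2.0 CPM in the vehicles (log2 fold change -1.75 ± 0.26, edgeR adjusted p = 0.020). Mcm5 (a subunit of the replicative helicase) was at 4.2 CPM with mitoxantrone and at 7.79, 9.34 and 10.8 CPM in the vehicles (log2 fold change -1.15 ± 0.17, edgeR adjusted p = 0.020). E2f8 did not pass when any vehicle but vehicle 3 was left out (highest edgeR adjusted p 0.083). Pcna, the replication clamp, was at 18.2 CPM with mitoxantrone, inside the 17.0 to 22.1 CPM of the vehicles.

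The genes of mitosis were also low with hydroxyurea. No gene passed edgeR's test against the 9 vehicles among 15405 (0%), while 640 had an unadjusted p under 0.05, DESeq2 called 1 higher and 14 lower, and limma, fitted to the whole screen with run code in the model, called 46, all lower. Within its run code, against 31 other libraries, 5 of 15546 genes passed (0.0322%), all lower: Kif2c, Cenpf, Aspm, Cenpe and Nusap1, which act at the spindle or kinetochore and of which Cenpf, Cenpe and Nusap1 are on the list of 28. All 28 genes of mitosis lay below all 9 vehicles (12% of all genes tested did), with a median log2 fold change of -0.89. In its run code 27 of 28 lay below all 31 other libraries, which 3.58% of all genes did, and the median was -1.02. All 28 were also below both vehicles of the same run code, vehicles 6 and 7, a comparison chosen after the data were seen and made without a test.

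Cenpf was at 7.17 CPM with hydroxyurea, against 10.4, 16.9 and 17.8 CPM in the vehicles and 12.6, 17.99 and 23.8 CPM in its run code. It fell by 1.31 ± 0.23 on the log2 scale within the run code (edgeR adjusted p = 0.025). Kif2c (a microtubule-depolymerising kinesin) was at 0.86 CPM with hydroxyurea and at 2.08, 3.08 and 4.67 CPM in its run code (log2 fold change -1.81 ± 0.34, edgeR adjusted p = 0.025). Nusap1 (a spindle protein) was at 4.6 CPM with hydroxyurea and at 6.74, 8.75 and 10.8 CPM in its run code (log2 fold change -0.95 ± 0.17, edgeR adjusted p = 0.025). Aspm and Cenpe (a kinetochore kinesin) fell by 1.221 and 1.08 on the log2 scale (edgeR adjusted p = 0.025 and 0.030). In all 5 the hydroxyurea library lay below every other library of the run code, and each passed in all 31 fits that left out 1 of them, an alternative added after the data were seen. The count of calls was 9 without Ursodiol and 5 to 7 in the other fits. Ttk (the checkpoint kinase MPS1) was the member with the smallest difference from vehicle, at 2.4 CPM with hydroxyurea and 2.78 to 3.46 CPM in the vehicles (log2 fold change -0.36 ± 0.17).

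S phase genes and the drug's own pathway stayed near the vehicles with hydroxyurea. The 29 S phase genes had a median log2 fold change of -0.01 and none passed, and 2 of the 29 lay below all vehicles. Rrm2, the small subunit of ribonucleotide reductase, was at 10.8 CPM with hydroxyurea, against 11.2, 13.5 and 14.9 CPM in the vehicles, which is below the lowest vehicle but did not pass (log2 fold change -0.27). Rrm1, the large subunit, was at 34.6 CPM with hydroxyurea and 33.8 to 42.4 CPM in the vehicles, and Rrm2b, the p53-inducible small subunit, at 37.2 CPM and 36.3 to 42.0 CPM. Of 16 genes of deoxynucleotide supply none passed with any of the 3 drugs. Rrm2 was at 7.83 CPM with mitoxantrone and at 9.24 CPM with mebendazole, both also below the lowest vehicle.

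**Figure D2:**
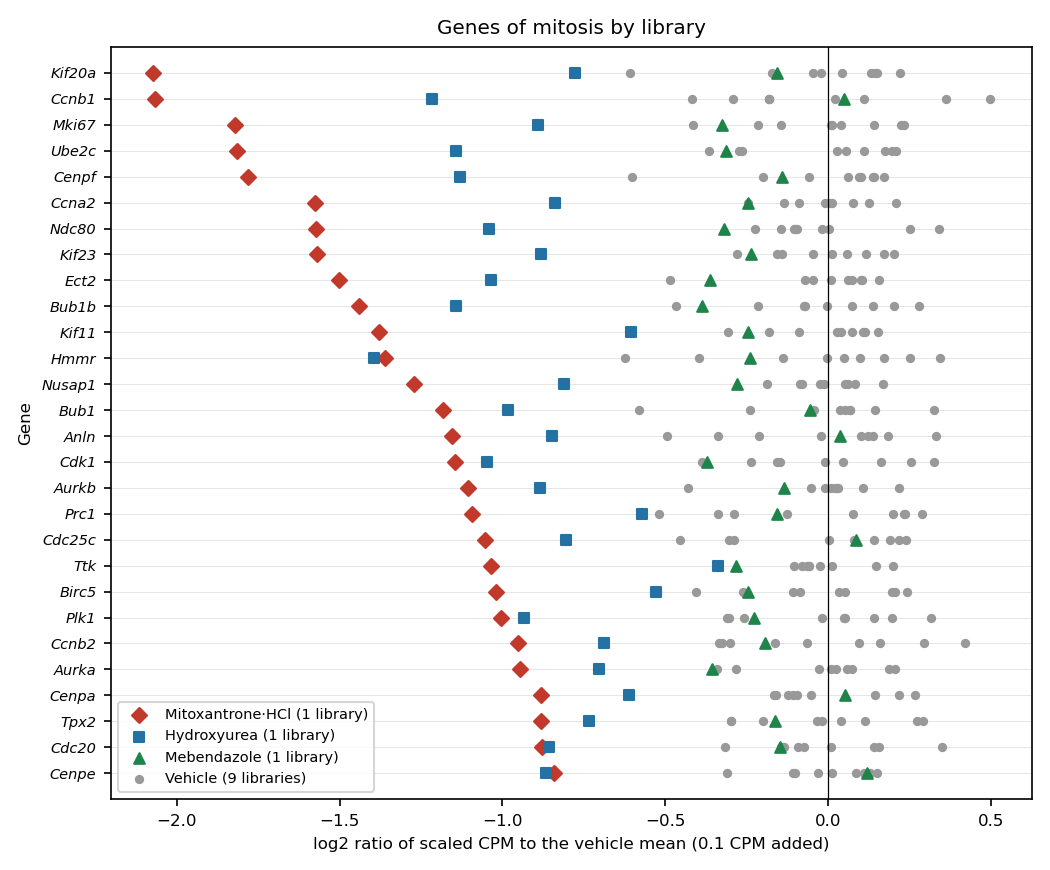
Each row is 1 of 28 genes of mitosis, and the x axis is the log2 ratio of its CPM to the vehicle mean. Mitoxantrone (red) and hydroxyurea (blue) lie to the left of all grey vehicle points for all 28 genes, and mebendazole (green) lies among or just left of them.

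Set side by side, mitoxantrone had the lower level in 26 of the 28 genes of mitosis, with Cenpe and Hmmr lower with hydroxyurea. Cenpe was at 5.2 CPM with mitoxantrone and at 5.1 CPM with hydroxyurea. Kif20a differed most, at 1.27 CPM with mitoxantrone and 3.27 CPM with hydroxyurea. The median difference between the drugs was -0.37 on the log2 scale and no member passed the test of that difference, so the sizes are not shown to differ. Scores over the list were -0.99 with mitoxantrone, -0.68 with hydroxyurea, -0.15 with mebendazole and -0.27 to 0.14 in the vehicles. Mitoxantrone and hydroxyurea had the lowest scores of the screen, also after subtracting the median of each run code, and Nilotinib came next at -0.57.

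The promoter letters were searched as a description. CHR, as TTTGAA or TTCGAA on either strand, was present in the promoters of 19 of the 23 genes of mitosis with a RefSeq promoter sequence, or 82.6%, against 21.7% of 27025 genes with one. In Cenpf and Aspm, printed above, it lies 2 and 6 bases after the gene start. Of 25 S phase genes 8 held it, or 32%, and of 29 genes with a sequence that fell with mitoxantrone 19 did, or 65.5%. CCAAT, on either strand, was in 82.6% of the mitosis promoters and 41.1% of all. A p53 element, taken as 2 runs of 10 bases with at most 1 base between them and at most 2 mismatches outside the core bases, was in 4 of 30 p53 target promoters, or 13.3%, against 0.807% of all. The 4 are Bax, Ccng1, Cdkn1a and Rps27l, and Gtse1 held one at its start. The p53 targets that passed with mitoxantrone against vehicle are not among the 4. Among genes with a sequence it was in 1 of 22 that rose with mitoxantrone (4.55%), in 2 of 29 that fell (6.9%) and in 2 of 23 genes of mitosis (8.7%). A window of 300 bases leaves out elements further away, and a match is a run of letters and not a site.

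Long genes were lower with mitoxantrone. Genes were placed in 10 bins by genomic span, from the GENCODE vM21 annotation. In the longest bin (median 233 kb) the median log2 fold change with mitoxantrone was -0.18 against vehicle, and 73.9% of 1527 genes had a negative value, while in the bin with a median of 5.74 kb it was 0.04 and 42.7% were negative. Against the run code the longest bin had a median of -0.15 with 75.7% negative. The same bin had medians of -0.04 with hydroxyurea and -0.02 with mebendazole against vehicle. No test across genes was made, since genes of 1 library are not replicates.

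Of 77 genes that fell with mitoxantrone within the run code, 29 spanned 200 kb or more, or 37.7%, against 6.213% of the genes tested, and of 36 that rose 0 did. Against vehicle the share was smaller, at 5 of 36 genes that fell, or 13.9%, beside 6.1% of the genes tested. The 29 also lay below all 9 vehicles, as did 16.1% of all genes, and 3 of them passed against vehicle, but both comparisons use the same mitoxantrone library. Csmd1, a complement-regulatory membrane protein with a span of 1640 kb, was at 52.8 CPM with mitoxantrone, against 92.1, 94.8 and 96.5 CPM in the other libraries of the run code (log2 fold change -0.83 ± 0.06, edgeR adjusted p = 0.0010). Grin2a, an NMDA receptor subunit, was at 79.7 CPM with mitoxantrone and at 131, 139 and 146 CPM in its run code (log2 fold change -0.80 ± 0.08, edgeR adjusted p = 0.0030). Grin2b, another such subunit, was at 363 CPM with mitoxantrone and at 599, 643 and 801 CPM in its run code (log2 fold change -0.86 ± 0.14, edgeR adjusted p = 0.033). It did not pass without Loratadine, Mebendazole, Metoprolol Tartrate, Spironolactone or Tamsulosin·HCl (highest edgeR adjusted p 0.077). Against vehicle, the long genes Arid1b (a chromatin remodelling subunit) and Dock4 (an activator of Rac) fell by 0.52 and 0.63 on the log2 scale (edgeR adjusted p = 0.020 for both), and passed in all 9 fits that left out a vehicle.

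**Figure D3:**
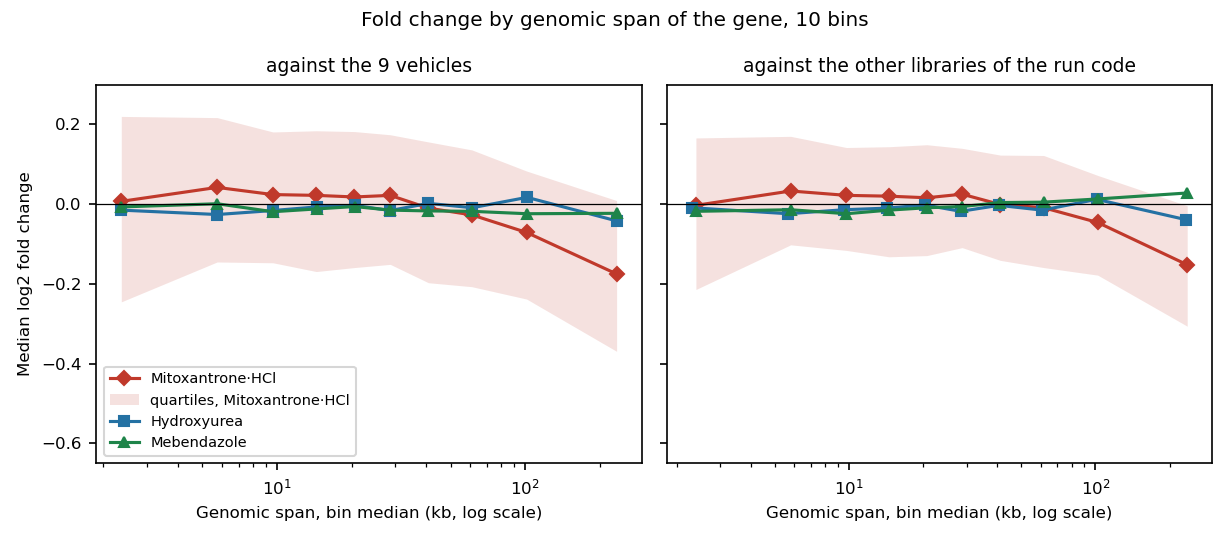
The x axis is the median genomic span of 10 bins of genes on a log scale, and the y axis is the median log2 fold change in each bin, against the vehicles on the left and against the run code on the right. Mitoxantrone (red, with quartiles shaded) falls to -0.18 and -0.15 in the longest bin, while hydroxyurea and mebendazole stay within 0.05 of 0.

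With mebendazole, whose known target is β-tubulin, 15 of 16 tubulin genes had a negative log2 fold change against vehicle, but none passed. No gene passed edgeR's test against the 9 vehicles (0% of 15398) or within the run code (0% of 15210). At an unadjusted p under 0.05 there were 365 and 183 genes. DESeq2 called 4 genes against vehicle, all higher, and 1 within the run code, Tubb2b, which was lower, and limma with run code in the model called 1 gene, Tubb4b, also lower. So no tubulin gene passed the main test, and what follows gives values. Fibroblast markers had lower medians still, of -1.001 against vehicle and -0.48 within the run code, with 6 of 6 negative. They summed to 160 CPM with mebendazole, inside the 145 to 264 CPM of the vehicles. In the other drugs of the run code, mitoxantrone left out, the sums were 158 to 208 CPM. The list score was -0.73, and the other libraries of the run code had a median of -0.55. The part of these markers in the tubulin levels was not tested.

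Shown first are the first 30 coding bases of tubulin genes, with the first 4 codons in capitals, since these encode the residues that the tubulin feedback reads. They come from the GENCODE vM21 annotation and the mouse transcripts of GRCm38.
Tuba1a: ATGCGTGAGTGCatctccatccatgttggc
Tuba4a: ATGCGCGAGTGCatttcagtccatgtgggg
Tuba8: ATGAGGGAATGCatatcggtccatgtgggt
Tubb2b: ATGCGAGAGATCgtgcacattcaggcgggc
Tubb4b: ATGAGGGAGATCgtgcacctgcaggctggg
Tubb5: ATGAGGGAAATCgtgcacatccaggccgga
Tubg1: ATGCCGAGAGAAatcatcaccctacagttg
Tube1: ATGACCCAGTCGgtggtcgtacaggtcgga

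All 5 α-tubulin genes encode the same first 4 residues as Tuba1a, and all 7 β-tubulin genes the same as Tubb5. The γ, δ and ε genes encode neither. Within the run code, all 5 α and all 7 β genes had a negative log2 fold change with mebendazole, of -0.92 to -0.23 and of -0.96 to -0.26, with medians of -0.44 and -0.45. The 4 γ, δ and ε genes ranged from -0.36 to -0.02, with a median of -0.18. Over all 16 the median was -0.38, against 0.00 over all genes. Of the 16, 12 lay below all 7 other libraries of the run code, which 7.88% of all genes did. Those libraries include mitoxantrone, which had the highest tubulin score of the screen (0.19), so the run-code fold changes depend on it. Against the 9 vehicles 15 of 16 were negative, the median was -0.36, and 8 lay below all vehicles, as did 8.1% of all genes. The deposited counts may share reads among near-identical tubulin genes, so levels of single members are uncertain.

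Tubb4b, a broadly expressed β-tubulin, was at 107 CPM with mebendazole, against 132, 142 and 159 CPM in the vehicles and 146, 150 and 183 CPM in its run code. It was the lowest of the screen, with log2 fold changes of -0.42 ± 0.09 against vehicle and -0.54 ± 0.12 within the run code (edgeR adjusted p = 1.00 for both). Tubb2b, a β-tubulin of developing neurons, was at 228 CPM with mebendazole, against 254, 324 and 361 CPM in the vehicles and 298, 314 and 324 CPM in its run code, again the lowest of the screen. Tuba4a, an α-tubulin of mature neurons, was at 188 CPM with mebendazole and at 217, 256 and 288 CPM in the vehicles. In all 3 genes the mebendazole library lay below every vehicle and every other library of its run code.

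The other tubulins varied. Tuba1a, the main neuronal α-tubulin, was at 654 CPM with mebendazole, inside the 638 to 800.4 CPM of the vehicles but below the 672 to 851 CPM of the run code. Tubb3, the neuronal β-tubulin, was at 341 CPM with mebendazole, below the 374 to 536 CPM of the vehicles and the 381 to 530.2 CPM of the run code (log2 fold change -0.44 ± 0.19 against vehicle). Tubb6 was at 4.85 CPM with mebendazole, inside the wide range of 4.6 to 14.4 CPM in the vehicles, although its log2 fold change was the most negative of the list (-0.80 ± 0.50). Tubg1, the γ-tubulin of microtubule nucleation, was at 22.9 CPM with mebendazole, below the 26.2 to 32.1 CPM of the vehicles (log2 fold change -0.34 ± 0.11). Among 36 tubulin cofactors and microtubule regulators the median was -0.01 against vehicle, and none passed.

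With mitoxantrone 15 of 16 were positive against vehicle (median 0.17), and with hydroxyurea 14 of 16 were negative (median -0.21), the same direction as with mebendazole. No member passed with either, and between mebendazole and hydroxyurea 11 of 16 were lower with mebendazole (median difference -0.15) and none passed. The score over the list was 0.19 with mitoxantrone, -0.14 with hydroxyurea, -0.29 with mebendazole and -0.17 to 0.12 in the vehicles. Mebendazole had the 6th lowest score of the screen and, after subtracting the median of each run code, the lowest (-0.36). Tubb4b differed between mitoxantrone and mebendazole by 0.79 ± 0.12 on the log2 scale, at 183 and 107 CPM (edgeR adjusted p = 0.16).

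**Figure D4:**
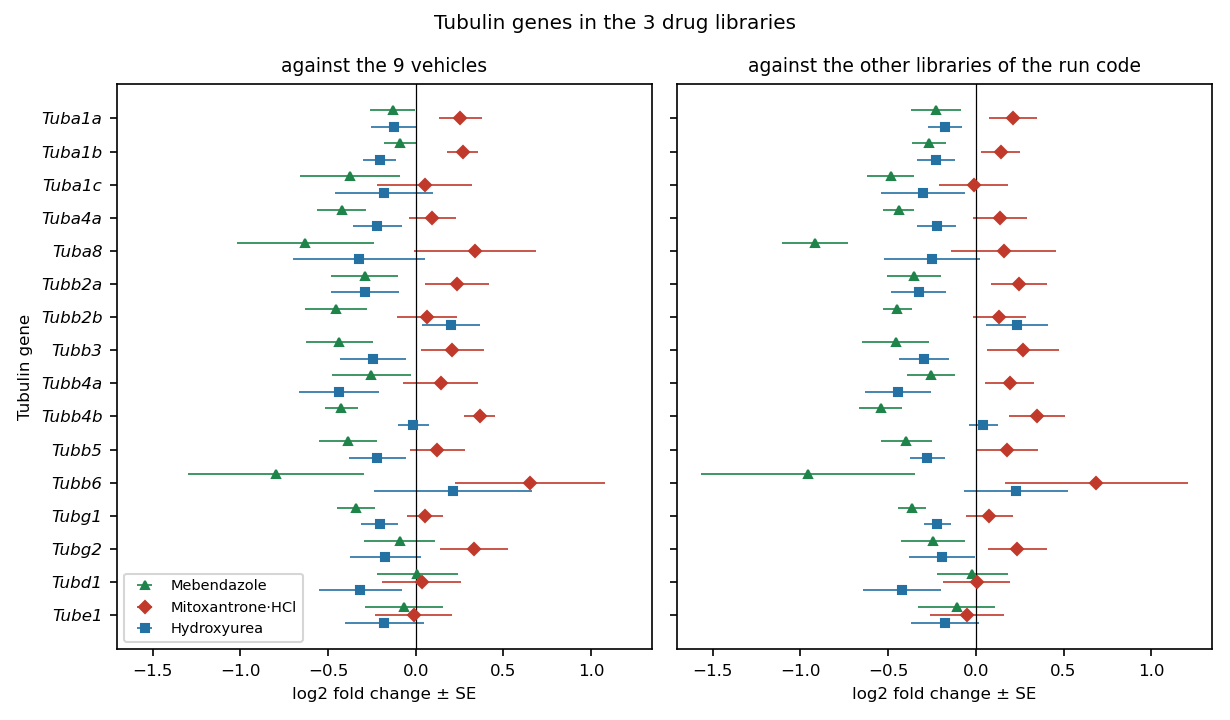
Log2 fold changes ± SE of 16 tubulin genes, against the 9 vehicles on the left and against the other libraries of the run code on the right. Mebendazole (green) is below 0 for 15 genes on the left and 16 on the right, mitoxantrone (red) is above 0 for 15 and 14, and hydroxyurea (blue) is below 0 for 14 and 13.

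Most genes of mitosis were lower with mebendazole than the vehicle mean, and only Ccnb1, Cdc25c, Cenpe, Cenpa and Anln were higher. The direction was not the same within the run code. The median log2 fold change of the 28 was -0.23 against vehicle and 0.05 within the run code, and 5 of the 28 lay below all vehicles, beside 8.1% of all genes. S phase genes were low, with 28 of 29 negative in both comparisons (medians -0.23 and -0.15) and none passed. Of the 29, 13 lay below all vehicles (8.1% of all genes did) and 2 below all other libraries of the run code (7.88%). Those other libraries include mitoxantrone, which had the lowest score of the screen for both lists, so the run-code values depend on it. The mebendazole score minus the median score of its run code was -0.04 for mitosis and -0.17 for S phase. Centred the same way, the vehicles ranged from -0.13 to 0.17 and from -0.09 to 0.07. Mcm5 was at 5.71 CPM with mebendazole, against 7.79 to 10.8 CPM in the vehicles (log2 fold change -0.71 ± 0.16). The gene of lowest p against vehicle was Edn1, which encodes the vasoconstrictor peptide endothelin-1, at 1.29 CPM with mebendazole and 0.26, 0.39 and 0.46 CPM in the vehicles (log2 fold change 1.79 ± 0.27, edgeR adjusted p = 0.61). It was the highest of the screen.

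In the direct comparisons of the 3 pairs, 2 genes passed in 1 pair. Each sets 1 library against 1, so the spread comes from the 9 vehicles alone. Hydroxyurea has another run code than mitoxantrone and mebendazole, so in 2 of the 3 pairs a difference of drug cannot be told apart from one of run code. Polk was higher with mitoxantrone than with hydroxyurea, at 28.2 and 9.70 CPM (log2 fold change 1.56 ± 0.17, edgeR adjusted p = 0.023; 0.0129% of genes passed). Zfp462, a zinc finger gene, was lower with mitoxantrone than with hydroxyurea, at 49.9 and 95.7 CPM (log2 fold change -0.92 ± 0.10, edgeR adjusted p = 0.023). With p adjusted over the 3 pairs together, both had an adjusted p of 0.069, and Polk kept its call in 2 and Zfp462 in 3 of 9 fits that left out a vehicle. Mitoxantrone against mebendazole gave 0 of 15446 genes, with 473 at an unadjusted p under 0.05 and 41 by DESeq2. Mebendazole against hydroxyurea gave 0, with 651 at an unadjusted p under 0.05 and 1 by DESeq2. For the genes of mitosis the median difference was -1.11 for mitoxantrone minus mebendazole and 0.70 for mebendazole minus hydroxyurea, and all 28 had the sign of that median in each.

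**Figure D5:**
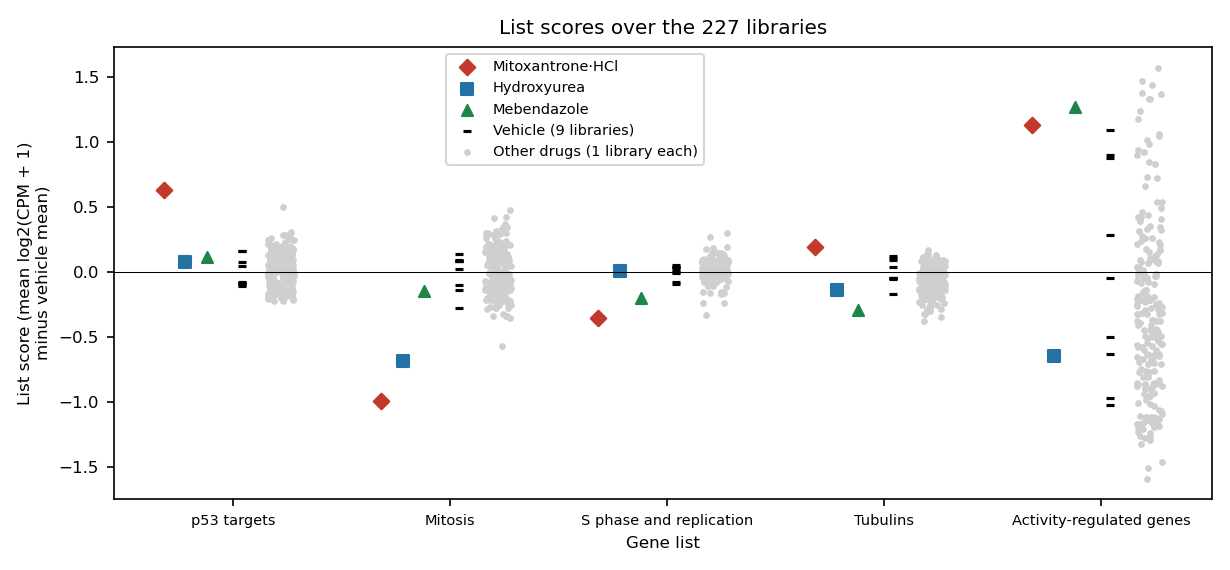
List scores, the mean log2(CPM + 1) of list members minus the vehicle mean, for 5 gene lists in the screen's 218 drug and 9 vehicle libraries. Mitoxantrone is the highest library for p53 targets (0.63) and the lowest for mitosis (-0.99), hydroxyurea is second lowest for mitosis (-0.68), and mebendazole is low for tubulins (-0.29), while activity-regulated genes range from -1.02 to 1.09 in the vehicles alone.

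Markers of cell types moved with these results, and their part in them was not tested. Of 5 oligodendrocyte precursor markers all were negative with mitoxantrone against vehicle and summed to 283 CPM, against 473 to 554 CPM in the vehicles and 442 to 520 CPM in the other drugs of the run code. Pdgfra (the growth factor receptor of these precursors) fell within the run code (log2 fold change -0.84 ± 0.14, edgeR adjusted p = 0.039). That call was lost without Loratadine, Mebendazole, Metoprolol Tartrate, Spironolactone or Tamsulosin·HCl (highest edgeR adjusted p 0.083). The same markers summed to 470 CPM with hydroxyurea and 414 CPM with mebendazole. With mitoxantrone, 5 of 6 fibroblast markers were negative and the 6 summed to 109 CPM. The sums were 145 to 264 CPM in the vehicles and 158 to 208 CPM in the other drugs of the run code, mebendazole left out. The fibroblast score was -0.72 with mitoxantrone, and the other libraries of the run code ranged from -0.73 to 0.02 with a median of -0.55. Pdgfra is on both the precursor and the fibroblast list, so these falls share a gene. All 6 neural progenitor markers were negative with mitoxantrone and summed to 236 CPM. The sums were 237 to 502 CPM in the vehicles and 241 to 412 CPM in the same other drugs of the run code. With hydroxyurea the fibroblast sum was 223 CPM and the progenitor sum 523 CPM. Neuron markers were negative in 8 of 8 with hydroxyurea against vehicle (median -0.32) and excitatory neuron markers in 6 of 6 (median -0.54), while astrocyte markers were positive in 6 of 7 (median 0.34). The excitatory markers summed to 1340 CPM with hydroxyurea, inside the 1230 to 2480 CPM of the vehicles and the 1050 to 2380 CPM of its run code. These shifts stand beside the low mitosis levels with hydroxyurea and beside its tubulin levels. The tubulin score with hydroxyurea, -0.14, was inside the -0.17 to 0.12 of the vehicles, and Tubb3 counts both as a neuron marker and as a tubulin. None of the precursor, fibroblast or progenitor markers was at 0 in the 3 drug libraries or the vehicles.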

How the data were processed

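The mRNA of 227 cultures was sequenced with a stranded kit, per the labels' protocols. The deposited values, made by the authors, are whole-number read counts per Ensembl gene, and the submitters' processing notes name STAR 2.4.0, Subread 1.4.6, limma, edgeR 3.10.5 and mm10. The table holds 31689 genes, of which 31328 matched GENCODE vM21. Counts were scaled by TMM in edgeR 4.0.16 (R 4.3.3), filtered by its default filter and tested with its quasi-likelihood F test at a Benjamini-Hochberg adjusted p under 0.05. CPM values use TMM factors over the 227 libraries (0.9375 to 1.064). Alternatives were RLE factors, no filter on low counts, DESeq2 1.42.0, limma 3.58.1 with a run-code term, and leaving out each vehicle or run-code library (for hydroxyurea's run code added after the data were seen). The tests were tried on simulated data first. Named genes are up to 15 per direction against vehicle (5 elsewhere) by fold change among passing genes at 1 CPM or more, list members that pass, and all tested members of 4 lists. Where fewer than 5 passed, genes of lowest p were named. The drugs, gene lists and tests were chosen with earlier results of these data known. Figures add 0.1 CPM before logs. Nothing in the labels says whether libraries came from separate dissections, so p-values measure the spread between libraries. The lowest chi-square per gene between any 2 of these 12 libraries was 10.5, so none was a duplicate.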

Additional observations from a re-analysis of the deposited data

Results flagged for a closer look

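In vehicle 3, Top2a was at 27.7 CPM and Ect2 at 4.05 CPM, the lowest of 9 vehicles and far from the rest. They were 2 of 82 named genes checked for such a gap, which chance alone gives in about 1 of 20 groups. Polk and Zfp462 differed between mitoxantrone and hydroxyurea, by 1.56 and -0.92 on the log2 scale, with an edgeR adjusted p of 0.069 for both over the 3 pairs together. They passed in 2 and 3 of the 9 fits that left out a vehicle.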

How the results depend on the processing

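DESeq2 called more genes than edgeR for every drug: 339 for mitoxantrone, 15 for hydroxyurea and 4 for mebendazole against vehicle, and 311, 23 and 1 within the run code. In the pairs it called 41 (mitoxantrone against mebendazole), 137 (mitoxantrone against hydroxyurea) and 1 (mebendazole against hydroxyurea). Limma with a run-code term called 256, 46 and 1 against vehicle; the cause of these differences was not tested. RLE factors and no filter on low counts kept these counts within 1.5 times. Leaving out a library gave 30 to 79 calls for mitoxantrone against vehicle, 53 to 124 within its run code, 0 to 1 against mebendazole, 0 to 2 against hydroxyurea, and 5 to 9 for hydroxyurea within its run code. Of 41 genes named as passing for mitoxantrone against vehicle, 24 passed in all 9 such fits. No named gene changed direction in these settings. With the run-code term the median of the genes of mitosis with mebendazole was 0.08, against -0.23 without it. The run-code level in that fit includes the mitoxantrone library. No paired analysis was possible because each drug has 1 library. Depth limits genes under about 1 CPM most, and with 1 library a drug's own spread was not measured.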

Other observations

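Activity-regulated genes, transcribed after neuronal firing, ranged widely among the vehicles. All 27 had a positive log2 fold change with mitoxantrone (median 0.96) and with mebendazole (median 0.82) against vehicle. With hydroxyurea 26 of 27 were negative (median -0.86), and none passed with any of these drugs. After subtracting the median of each run code, the list scores were 0.545 with mitoxantrone, -0.504 with hydroxyurea and 0.682 with mebendazole. All of these lay inside the -0.927 to 1.466 of the vehicles, centred the same way. Fos, an immediate early transcription factor, was at 174 CPM with mitoxantrone, 30.1 CPM with hydroxyurea, 243 CPM with mebendazole and 16.6 to 138 CPM in the vehicles. Hypoxia response genes had medians of 0.79, -0.54 and 0.49 in the same drug order, and none of 16 passed. Their scores were 0.93 with mitoxantrone and 0.66 with mebendazole, and the other libraries of that run code had a median of 0.57 and a maximum of 0.99.

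Of 20 NRF2 targets, the antioxidant genes, 19 were positive with hydroxyurea against vehicle (median 0.35) and 9 lay above all vehicles (13.4% of all genes did), but none passed. Within the run code 0 lay above all other libraries (3.94%). Txnrd1, a thioredoxin reductase, was at 210.2 CPM with hydroxyurea, against 118, 143 and 206 CPM in the vehicles (log2 fold change 0.47 ± 0.25, edgeR adjusted p = 0.76).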
